A study of Mus musculus with 6 samples.

Results

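The histone variant genes *H2afx*, *H2afz*, *H2afv*, *H2afy*, *H3f3a*, *H3f3b* and *H1f0* were examined by transcript region in cultured squamous cell carcinoma cells (SCCc). They were found by name among 23698 gene rows, where each of the 7 genes had a row of its own. The genes were selected on measured values of these same libraries. *H2afx* was chosen from its translational efficiency, the highest among well-counted genes, and the other 6 genes had been set beside the footprints of replication-dependent histone genes. Their efficiencies are therefore given as a description, without a test.

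The study compared mRNA isoforms and their translation in mouse epidermis and its tumour cells. Used here were 3 SCCc libraries in a single condition, 1 of ribosome profiling and 2 of RNA-seq. All came from primary keratinocytes of back skin at postnatal day 0, with the genotype HrasG12V; Tgfbr2 fl/fl KO, at passages 10 to 15. These are cells grown in culture, without the stroma of a tumour, and whether the RNA-seq replicates are separate cultures is not given in the sources used here. Ribosome profiling sequences the mRNA fragments covered by ribosomes, called footprints, and RNA-seq measures mRNA abundance. Libraries of wild-type cells are not used here, and no value is a change between tumour and normal cells.

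Estimated counts, which need not be whole numbers, totalled 3549555 on exons for ribosome profiling. The RNA-seq totals were 10707930 (replicate 1) and 14003713 (replicate 2). Coding sequences took 3198469 footprints, and are abbreviated CDS. The keratinocyte markers were all above 1 RPKM (counts per unit of counted length and of library size) in both RNA-seq libraries, 10 of 10. Their summed level was 15761 RPKM in replicate 1 and 17943 RPKM in replicate 2, led by *Krt5*. The 7 fibroblast markers summed to 10.2 and 15.95 RPKM, led by *Col3a1*, and the 5 melanocyte markers to 5.41 and 5.47 RPKM, led by *Pmel*. The 5 immune markers summed to 37.9 and 46.1 RPKM, led by *Cd68* (35.1 and 37.3 RPKM) and *Lyz2* (2.71 and 8.56 RPKM), with *Cd3e* and *Cd207* at 0. The 3 endothelial markers summed to 0.505 and 0.591 RPKM, led by *Kdr*. On its CDS *Hras* held 128 footprints, with 1179 and 1619 exon counts in the RNA-seq replicates, and *Tgfbr2* held 193 footprints and 3150 and 3958 RNA-seq counts. Counts per gene show neither a base change nor the loss of an exon, so neither modification was read from them.

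Nucleosomes wrap DNA around the core histones H2A, H2B, H3 and H4, while linker histone H1 binds where the DNA enters and leaves. Most histone protein is made in S phase from clustered replication-dependent genes, whose mRNAs end in a conserved stem-loop and carry no poly(A) tail. Variant genes lie outside that supply, are generally expressed through the cell cycle, and end in a poly(A) tail, and the mRNA of H2A.X is known in both forms.

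The annotated transcripts were searched for both kinds of 3′ end, since they decide which mRNAs a poly(A) selection would retain. Whether such a selection was used for RNA-seq is not given in the sources used here. The histone stem-loop pattern, of 16 nt, was found on the mRNA strand in 43 of 19269 coding transcripts (0.223%), 1 per gene, and in 35 of 59 replication-dependent histone transcripts (59.3%). Only this fixed pattern was searched, so a transcript without a match may still hold a variant of it. Among the variant genes the pattern was found in *H2afx* alone. Its start lay 49 nt after the last coding codon and its end 822 nt before the end of the transcript. The windows below set it beside 2 of the 35 replication-dependent histone genes, 5′ to 3′, with the pattern in capitals.
H2afx: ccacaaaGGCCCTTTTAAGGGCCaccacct
Hist1h2ab: aaacaaaGGCTCTTTTCAGAGCCacccaca
Hist1h4c: aacaaaaGGCCCTTTTCAGGGCCacccaca
The *H2afx* window lies in the 3′UTR at chr9:44335233-44335262 on the plus strand of GRCm38, within its only exon. A poly(A) signal, AATAAA or ATTAAA, was present in the last 50 nt of the transcript chosen for 5 of the 7 variant genes, and in any coding transcript of 6 of them. The exception was *H2afy*. The signal was present in 69.6% of all coding transcripts and in 23.7% of replication-dependent histone transcripts. *H2afx* thus carried both elements, as its second window shows with the signal in capitals.
H2afx: tgggctaattttATTAAAggatcgtttggt
That window lies at chr9:44336031-44336060 on the plus strand. A match is a description of the sequence, and reads were counted over whole regions, so their positions relative to either element were not analysed here.

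Annotated CDS length was taken as the union of coding exons over the coding transcripts of a gene. The counted CDS was shorter than this union in 2 of the genes. It was 304 nt in *H2afx*, 70.9% of the annotation, and 91 nt in *H2afz*, 23.7%. It equalled the union in *H2afv* (384 nt), *H2afy* (1207 nt), *H3f3a* (408 nt), *H3f3b* (408 nt) and *H1f0* (582 nt). In *H2afy* the union is longer than the CDS of the transcript chosen, 1116 nt, and pools alternative coding exons. Counted UTRs also differed from those of the transcript chosen, with 510 nt against 272 nt for the 5′UTR of *H1f0*, 512 nt against 53 nt for the 3′UTR of *H3f3a* and 44 nt against 475 nt for that of *H2afz*. Short reads can also fall on copies of a sequence, so windows of 28 nt of each CDS were sought in GENCODE transcripts of other genes. The windows spanned the whole CDS of the transcript chosen, so in *H2afx* and *H2afz* some include positions left out of counting. In *H2afx*, 128 of 402 windows (31.8%) also occurred in replication-dependent histone genes, and 128 occurred in transcripts of pseudogenes. All 357 windows of *H2afz* and all 381 of *H3f3a* occurred in transcripts of pseudogenes, as did 281 of 381 in *H3f3b* (73.8%). No window of *H2afv*, *H2afy* or *H1f0* had such a copy. The counts of *H2afx*, *H2afz*, *H3f3a* and *H3f3b* are uncertain to the extent that reads were divided among copies, which was not tested.

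**Figure D1:**
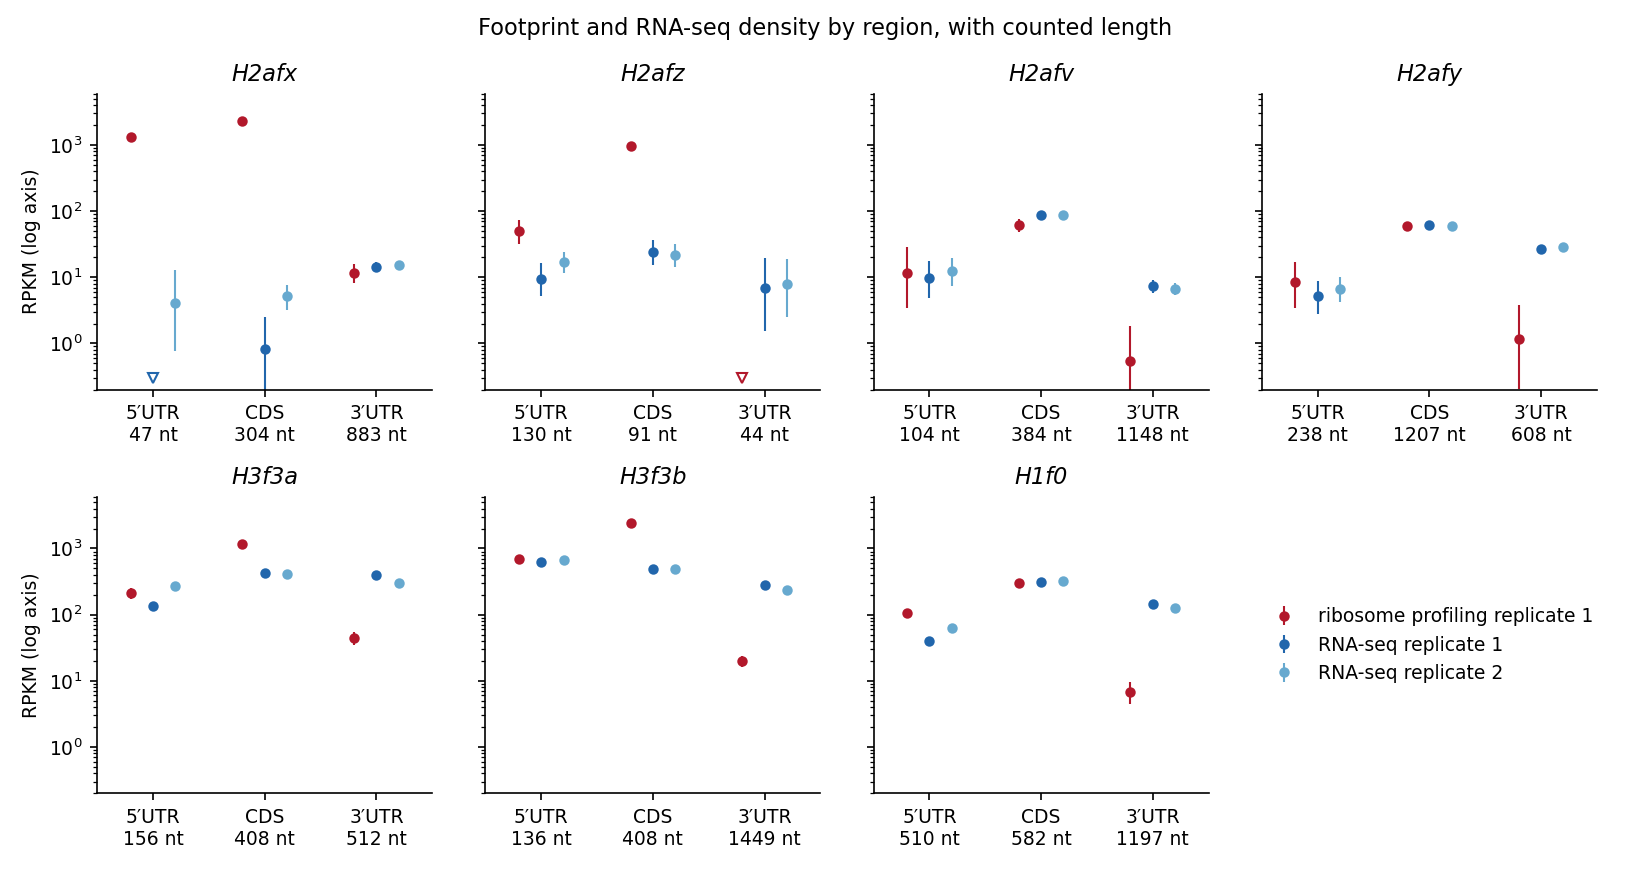
Density of footprints (red) and of RNA-seq replicates 1 and 2 (dark and light blue) in RPKM on a log axis, for the 5′UTR, CDS and 3′UTR of each gene, with counted length under each region. Bars are exact 95% Poisson intervals, which cover counting error only, and open triangles mark a count of 0; in *H2afx* footprints lie mainly on the CDS and 5′UTR and RNA-seq mainly on the 3′UTR.

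H2A.X is the H2A variant phosphorylated around DNA double-strand breaks. *H2afx* held 2458 footprints on its CDS (95% Poisson interval 2361 to 2557), or 2278 RPKM over 304 nt. RNA-seq on the same CDS held 2.65 counts (0.475 to 8.24) in replicate 1 and 21.8 counts (13.6 to 33.1) in replicate 2, or 0.815 and 5.13 RPKM. On the 3′UTR of 883 nt, RNA-seq held 134 and 191 counts, or 14.2 and 15.5 RPKM. RNA-seq and footprints of *H2afx* thus lay mainly on different regions. The 5′UTR, counted over 47 nt, held 223 footprints at 1337 RPKM, 8.21% of those on its exons. The 3′UTR took 98.1% and 88.6% of its RNA-seq exon counts, with 10.1% on the CDS in replicate 2, but 1.35% of its footprints, 36.6 in all. Among histone genes with at least 20 RNA-seq counts, a majority of exon counts, summed over both libraries, also lay on the 3′UTR in *Hist1h2bc* (84.1% of 128 counts), *Hist2h2be* (84.6% of 51.7 counts), *H2afj* (63.3%) and *H3f3b* (56.2%), beside 92.3% in *H2afx*. Their 3′UTRs held at most 4.17% of their footprints, so this division of counts was not found in *H2afx* alone. Densities, which take account of counted length, were divided differently. The log2 ratio of RNA-seq density on the 3′UTR over the CDS was -1.62 in *H2afj* and -0.93 in *H3f3b*. It was -0.97 in *Hist1h2bc* and 0.02 in *Hist2h2be*, from 14.6 and 6.67 CDS counts. Each lay below the 2.32 of *H2afx*. The RNA-seq replicates of *H2afx* had like densities on the 3′UTR and unlike densities on the CDS, where the counts were few.

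The density of RNA-seq on the 3′UTR over that on the CDS placed *H2afx* far from most genes. Its log2 ratio was 2.32 over both libraries, at percentile 99.2 of 9596 genes with at least 60 counted nt and 10 counts in both regions, whose median was -0.58. Taken singly, replicate 1 gave 4.12 with a counting error of 0.89, and replicate 2 gave 1.59 with a counting error of 0.33. The ratio was above 0 in both, and its size rested on which library was used. The *H2afx* CDS was also rich in G and C, at 69.9% (percentile 99.3 of coding transcripts), and its 3′UTR was at 59.2% (percentile 91.3). The part of base composition in the RNA-seq coverage was not tested. For footprints the same log2 ratio was -7.61, at percentile 3.81 of the 1130 genes that met those limits, but at 28.4 of 8931 genes where the count limit applied to the CDS alone.

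H2A.Z, carried by nucleosomes beside transcription start sites, is encoded by *H2afz* and *H2afv*, whose CDS of 384 nt are 79.2% identical. *H2afz* held 317 footprints on the 91 nt counted (283 to 353), or 980 RPKM, with 23.6 and 27.8 RNA-seq counts, or 24.2 and 21.8 RPKM. *H2afv* held 83.4 footprints on 384 nt (66.5 to 103), or 61.2 RPKM, with 361 and 478 RNA-seq counts, or 87.7 and 88.8 RPKM. The order of the pair was opposite in the 2 assays. Footprint density on the CDS was 16.01-fold higher in *H2afz* (counting error 0.18 on the log2 scale), while RNA-seq density on the CDS was 3.625- and 4.07-fold higher in *H2afv* in replicates 1 and 2. On exons footprints were 23.3-fold higher in *H2afz* and RNA-seq 1.86- and 1.53-fold higher in *H2afv*. The *H2afz* values rest on the 23.7% of its CDS that was counted. In *H2afv*, RNA-seq lay mainly on the CDS, and the log2 ratio of 3′UTR over CDS density was -3.66, at percentile 3.14.

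MacroH2A1, an H2A variant with a large additional domain that is found on repressed chromatin, is the product of *H2afy*. Its pooled coding exons, 1207 nt, held 256 footprints (226 to 290), or 59.8 RPKM. RNA-seq on the CDS was at 60.8 and 59.1 RPKM in replicates 1 and 2. The 3 densities were close to each other, and the *H2afy* footprint density was also within the counting interval of that of *H2afv*.

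*H3f3a* and *H3f3b* encode the same H3.3 protein, the H3 variant deposited outside replication, from CDS that are 76.7% identical over 408 nt. *H3f3a* held 1718 footprints (1638 to 1801), or 1186 RPKM, with RNA-seq on the CDS at 429 and 410 RPKM. *H3f3b* held 3493 footprints (3378 to 3611), or 2412 RPKM, with RNA-seq on the CDS at 496 and 489 RPKM. Of the 7 genes *H3f3b* held the most footprints, 39.1% of those on their CDS, followed by *H2afx* with 27.5% and *H3f3a* with 19.2%. Footprint density was 2.03-fold higher in *H3f3b* than in *H3f3a* (log2 1.02, counting error 0.04). On the same CDS, RNA-seq was 1.16- and 1.19-fold higher in *H3f3b* in replicates 1 and 2. With both assays on exons, footprints were 1.11-fold higher in *H3f3b* and RNA-seq 1.06- and 1.07-fold higher in *H3f3a*. The size of the difference in footprint density between the pair thus depended on the region. The 3′UTR, counted over 1449 nt in *H3f3b* and 512 nt in *H3f3a*, held 2.59% and 4.17% of their exon footprints. Before division by the 1993 and 1076 nt of exons counted, exon footprints numbered 3926 in *H3f3b* and 1914 in *H3f3a*. Copies of both sequences exist, as given above. The log2 ratio of RNA-seq density on the 3′UTR over the CDS was -0.27 in *H3f3a* (percentile 66.8) and -0.93 in *H3f3b* (percentile 36.2). On the 5′UTR of *H3f3b*, RNA-seq exceeded the CDS density, with a log2 ratio of 0.39 at percentile 94.9 of 5524 genes, whereas footprints were lower there, at -1.81.

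H1.0, the product of *H1f0*, is a linker histone that accumulates in differentiated and resting cells. Its CDS of 582 nt held 619 footprints (571 to 669), or 299 RPKM, with RNA-seq at 314 and 320 RPKM. Its 5′UTR of 510 nt held 190 footprints, 22.7% of those on its exons, the largest such share among the 7 genes. The density there was 105 RPKM for footprints and 40.5 and 63.0 RPKM for RNA-seq. Its log2 ratio of 5′UTR over CDS density was -1.51 for footprints (percentile 30.3 of 2925 genes) and -2.62 for RNA-seq (percentile 17.5).

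**Figure D2:**
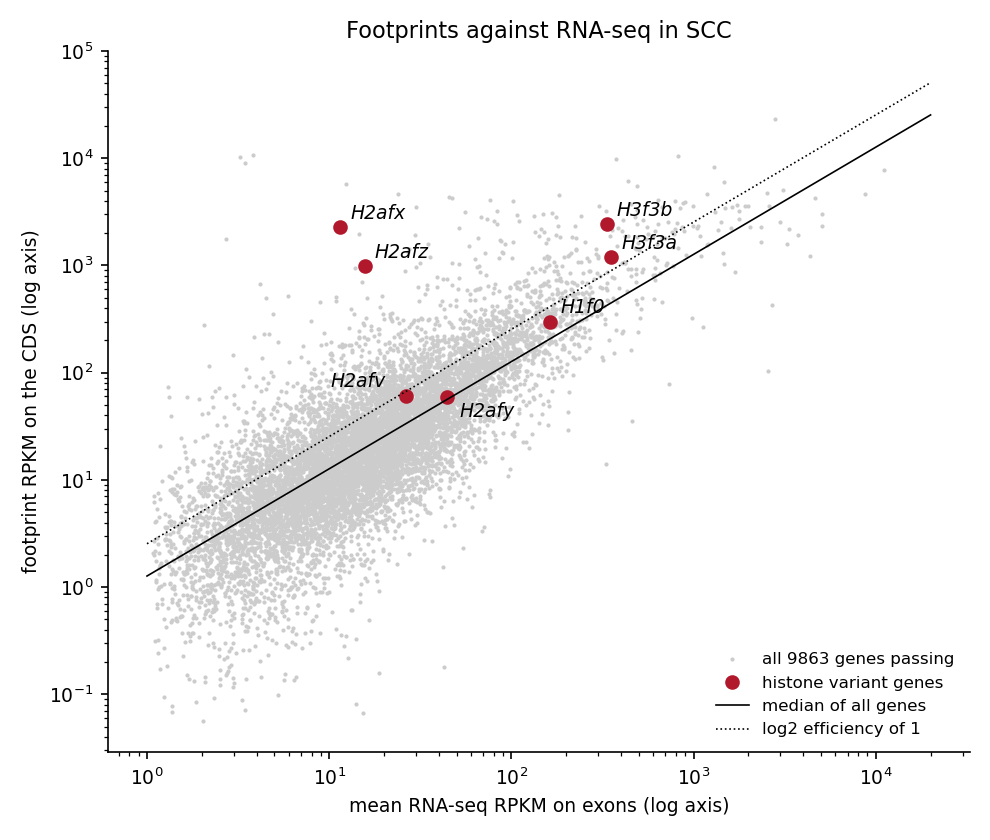
Footprint RPKM on the CDS against mean RNA-seq RPKM on exons, both on log axes, for the 9863 genes passing the filters (grey) and the 7 histone variant genes (red). The solid line is the median of all genes and the dotted line a log2 efficiency of 1; *H2afx* and *H2afz* stand far above both, at 11.4 and 15.6 RPKM of RNA-seq.

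Efficiency compared footprint density on the CDS with the averaged RNA-seq density on exons, as a log2 ratio taken relative to the median of the 9863 genes that passed filters on low counts. All 7 variant genes passed, with a median of 1.40. An efficiency above 1, 2-fold over the median gene, was reached by 4 of the 7 genes, beside 20.8% of all genes. None of the 7 was below -1, beside 21.1% of all genes. *H2afx* stood at 7.30 (SD 0.19 over the 2 RNA-seq replicates), *H2afz* at 5.63 (SD 0.20), *H3f3b* at 2.51 (SD 0.10) and *H3f3a* at 1.40 (SD 0.09). *H2afv* followed at 0.88, *H1f0* at 0.53 and *H2afy* at 0.10. Neighbours in this order were separated by more than the SD over RNA-seq replicates, which leaves out the variation of the single ribosome profiling library, and the order of the last 3 changed with the region counted.

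The choice of region moved individual genes. With RNA-seq counted over the CDS, 4 of 7 were above 1, beside 18.3% of all genes, and with both assays counted over exons, 3 of 7, beside 17.9%. *H2afx* rose to 9.53 over the CDS, with an SD of 1.88 where counts were few, and was 6.25 over exons. *H2afz* was 5.36 and 5.01. For *H2afv* the value was -0.58 over the CDS and -0.28 over exons, and for *H1f0* it was -0.13 and -0.18, so both turned from above to below the median gene. *H2afy* was -0.05 over the CDS and 0.21 over exons, the highest of these 3 genes in both. *H3f3b* was 2.24 and 1.22, and *H3f3a* 1.45 and 0.99. *H2afx* and *H2afz*, the highest under all 3 choices, were also the genes with a partly counted CDS.

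**Figure D3:**
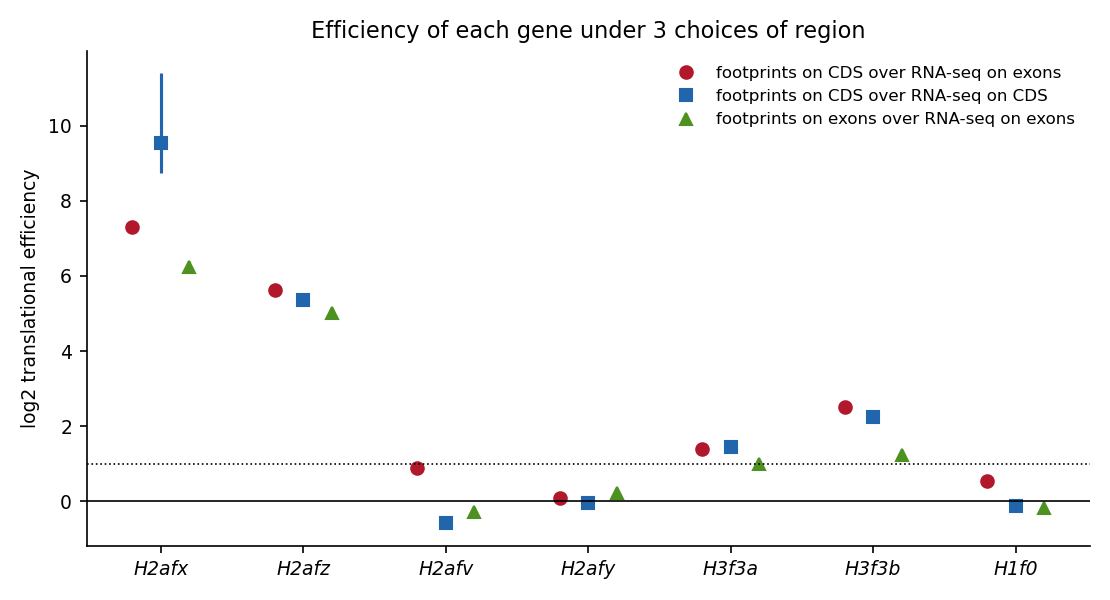
Log2 translational efficiency of each gene with footprints on the CDS over RNA-seq on exons (circles), RNA-seq on the CDS (squares), or both assays on exons (triangles). Vertical lines span the values with either RNA-seq replicate alone, the solid line is the median gene and the dotted line is 1; *H2afv*, *H2afy* and *H1f0* cross 0 between choices.

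Of all footprints on CDS, the 7 genes took 0.280% (95% Wilson interval 0.274% to 0.285%). They held 0.0995% and 0.0964% of the RNA-seq counts on CDS in replicates 1 and 2. The 66 replication-dependent histone rows held 9.79% of the footprints on CDS (9.76% to 9.82%) and 0.00266% and 0.00440% of the RNA-seq counts. The log2 ratio of footprint share over mean RNA-seq share was 1.51 for the variant genes and 11.44 for the replication-dependent genes. *H2afx* was at 9.19 on this scale, or 11.03 and 8.40 with RNA-seq replicate 1 or 2 alone, from few RNA-seq counts, and *H3f3a* and *H3f3b* together at 1.57. On exons the ratio was 0.86 for the variant genes, 11.36 for the replication-dependent genes and 5.76 for *H2afx*, so the set that *H2afx* lay nearer to changed with the region.

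For H2A and H3, the footprint densities of replication-dependent copies differed with whether their CDS was counted in full. The partly counted copies of these families were set beside them after the data were seen. The 4 fully counted H3 copies had a median of 9518 footprint RPKM, 3.95-fold the density of *H3f3b* and 8.02-fold that of *H3f3a*. RNA-seq summed over the CDS of these 4 copies gave 9 and 12.9 counts in the replicates, beside 1873 and 2344 on *H3f3a* alone. The 7 fully counted H2A copies had a median of 9194 footprint RPKM, 4.04-fold that of *H2afx* and 150-fold that of *H2afv*. Partly counted copies were lower. The 7 such H2A copies ranged from 593 to 2285 footprint RPKM, a range that held *H2afx* and *H2afz*, themselves partly counted. *H2afv* and *H2afy*, counted in full, lay below that range, at 61.2 and 59.8 RPKM. The 6 such H3 copies ranged from 1276 to 6797, over 37 to 100 nt counted, and only *Hist2h3b* was below *H3f3b*. Among the H2A copies *Hist3h2a*, with 317 nt counted, had 1323 footprint RPKM, below *H2afx*, and 27.9 RPKM of RNA-seq on the CDS, above *H2afx* (2.97). Against *H2afz* the order changed with the replicate, at 23.4 and 32.3 RPKM for *Hist3h2a* and 24.2 and 21.8 RPKM for *H2afz*. Of the 3 fully counted H1 copies, *Hist1h1b* and *Hist1h1e* had 1712 and 2131 footprint RPKM, above the 299 RPKM of *H1f0*. Only *Hist1h1t*, with 2 footprints, lay below *H1f0*, at 0.899 RPKM. Partly counted H1 copies were not compared here. Near-identical copies may share reads, so the level of any single copy is uncertain.

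**Figure D4:**
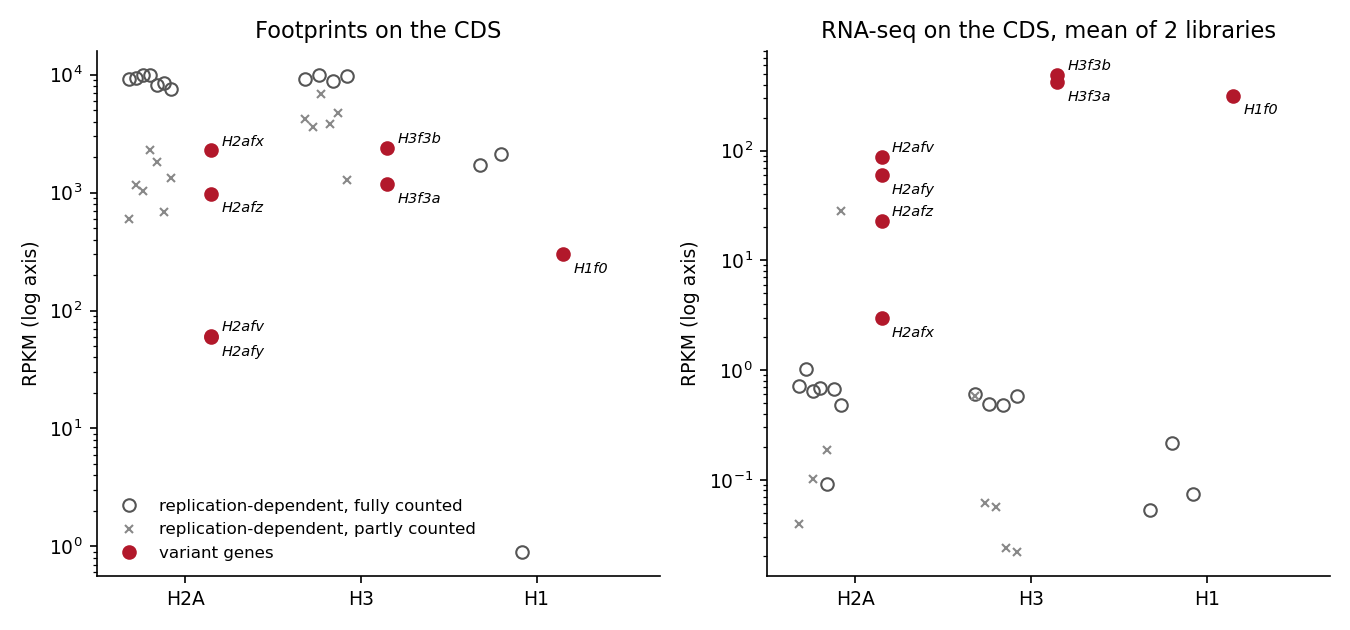
Footprint RPKM on the CDS (left) and mean RNA-seq RPKM on the CDS (right), on log axes, for variant genes (red) and replication-dependent copies of H2A, H3 and H1 counted in full (open circles) or, for H2A and H3, in part (crosses; values of 0 are not drawn). In footprints, fully counted H2A and H3 copies lie above the variant genes. Fully counted H1 copies lie above *H1f0*, except *Hist1h1t*, which held 2 footprints. The footprint range of partly counted H2A copies holds *H2afx* and *H2afz* and lies above *H2afv* and *H2afy*. All partly counted H3 copies but 1 lie above *H3f3b* in footprints.

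Of 9 other histone variant genes, 8 had a row and 2 passed the filters, *H2afj* at 5.20 (4.19 with RNA-seq on the CDS, 3.27 with both assays on exons) and *Cenpa*, which encodes the centromeric H3, at 1.40. *H2afj* resembled *H2afx* in its partly counted CDS (242 nt, 62.1%) and in its G and C content (68.5%). Its 3′UTR of 1348 nt took 71.1% and 57.5% of its RNA-seq exon counts and 1.40% of its footprints, but its RNA-seq density was lower there than over coding sequence (log2 ratio -1.62). Among the genes that handle H2A.Z, 10 of 11 had a row and passed, with 4 above 1 and 1 below -1, beside 20.8% and 21.1% of all genes, the background of each list. The highest were *Ruvbl1* (3.38, with 34.6% of its CDS counted) and *Anp32e* (2.605), a chaperone that removes H2A.Z, and the lowest *Ep400* (-1.04) and *Ino80* (-0.79). All 8 genes of H3.3 deposition passed, with a median of -0.81, 1 above 1 and 2 below -1. *Asf1a* (2.16) and *Dek* (0.88) were highest and *Ubn1* (-1.56) and *Cabin1* (-1.41) lowest, so the H3.3 genes stood above most of their own deposition factors. The counted CDS was 408 nt in both H3.3 genes, 612 nt in *Asf1a*, 1140 nt in *Dek*, 3405 nt in *Ubn1* and 6561 nt in *Cabin1*. The part of CDS length in this order was not tested.

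All 13 general histone chaperones passed, with a median of 1.59, 10 above 1 and none below -1, beside 20.8% and 21.1% of all genes. The 10 include *Hjurp*, a chaperone of the centromeric H3, at 1.05 in a row that joins its counts with those of other gene names. *Set* (3.99) and *Nap1l1* (2.85) were highest, both with a partly counted CDS, and *Ssrp1* (0.27) and *Nap1l4* (0.78) lowest. Of 11 genes of H2A.X signalling, 9 passed, none above 1 and 1 below -1. *Mdc1* (0.27), the reader of phosphorylated H2A.X, and *Rnf8* (0.26) were highest, and *Prkdc* (-1.19) and *Rnf168* (-0.91) lowest. Of 12 genes of histone mRNA 3′ end processing, 11 passed, with 6 above 1 and 1 below -1. *Slbp*, which encodes the stem-loop binding protein, was highest at 2.07, followed by *Eri1* at 1.89, and *Sympk* (-1.14) and *Casp8ap2* (-0.63) were lowest.

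The genes nearest each variant gene were found by Euclidean distance over 3 log2 RPKM values, footprints on the CDS and RNA-seq on exons in each replicate, among the 4829 passing genes that reached 100 counts in each library. For *H2afx* they were *Rpl21* (distance 0.64) and *Serf2* (1.35), and for *H2afz* they were *Serf2* (0.36) and *H2afj* (0.50). These neighbours were themselves partly counted, with 100 nt of CDS in *Rpl21* and 70 nt in *Serf2*. *H2afz* and *H2afv* did not reach the 100 counts asked of their neighbours. Around *H2afv* lay *Ptcd3* (0.07) and *Fbxo28* (0.09), around *H2afy* *Fam168b* (0.05) and *Myo1e* (0.08), and around *H1f0* *Ezr* (0.06) and *Hdgf* (0.13). *H3f3a* was nearest *Tagln2* (0.09) and *Arf1* (0.13), and *H3f3b* nearest *Fabp5* (0.08, with 135 nt or 33.3% of its CDS counted) and *Rps13* (0.09).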

How the data were processed

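The 3 libraries were grouped by their labels. The authors trimmed reads, aligned them to GRCm38 with STAR 2.6.1, used Bowtie2 2.4.1 to discard footprint reads from rRNA, tRNA or mitochondrial sequences, and counted genes with Plastid. The authors deposited estimated counts for each gene and region, without normalization. The RPKM values deposited by the authors use larger library totals and served only as an alternative. The annotation release and the positions left out of counting are not given in the sources used here.

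RPKM was recomputed from counts, counted length and the sum of exon counts, in Python 3.11.15 with numpy 2.4.6 and pandas 2.3.3. Genes needed more than 1 RPKM in each RNA-seq library, a base mean over 25 from size factors of DESeq2 on rounded counts, and footprints on a counted CDS. The calculation was tested on simulated data. Annotation came from GENCODE M21 on the same build. Sequences were those of the coding transcript with the longest CDS and then the length nearest the counted one, and annotated CDS length was the union over coding transcripts. The 2 RNA-seq libraries were taken as replicates from their labels. Their counts differed beyond sampling noise (chi-square per degree of freedom 7.52 over 9863 genes), which does not show separate cultures. With 1 ribosome profiling library and 1 condition no test was run. Poisson and Wilson intervals and counting errors cover counting only. The named genes were the 7 genes, *Hras*, *Tgfbr2*, the 2 highest and lowest of each list and the nearest genes. Outside this rule, the marker genes, *Hjurp*, *Hist3h2a*, *Hist2h3b*, *Hist1h2ab*, *Hist1h4c*, *Hist1h2bc*, *Hist1h1b*, *Hist1h1e*, *Hist1h1t* and *Hist2h2be* were named after the data were seen. The genes and lists were chosen with earlier results of these data known, and the searches of motifs and of 28-nt windows and the partly counted copies were added after the data were seen. Alternatives covered regions, replicates, a pseudocount, length, filters, deposited RPKM, edgeR TMM and DESeq2 factors, and the counted share of the CDS.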

Additional observations from a re-analysis of the deposited data

How the results depend on the processing

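The median log2 translational efficiency of the 7 genes, 1.40, was 0.99 with both assays over exons, 1.02 without division by counted length, 1.01 over the 5 genes that reached 100 counts in each library and 0.93 over the 5 genes with at least 80% of the CDS counted. On the main scale these sets of 5 genes had medians of 1.40 and 0.88, so the first fall came from the median gene of the smaller set compared. The median of the 7 genes was 1.35 to 1.46 with either RNA-seq replicate left out. Under the 80% limit 2 genes were above 1, since *H2afx* and *H2afz* left the list. With at least 100 counts, 908 of 4829 genes were above 1 (18.8%), a smaller set taken relative to its own median. The share of footprints on CDS was 0.310% without the replication-dependent histone genes in the total. *H2afx* ranged from 6.25 to 9.53 and *H2afz* from 5.01 to 5.78 over their alternatives. *H2afv*, *H2afy* and *H1f0* fell below 0 under 3, 2 and 3 alternatives.

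The percentile of the ratio of footprints on the 3′UTR over the CDS depended on which genes were compared. With at least 10 footprints required on the CDS alone, an alternative chosen after the data were seen, it was 28.4 of 8931 genes for *H2afx* in place of 3.81, 34.9 for *H3f3b* in place of 9.38, 71.9 for *H3f3a* in place of 50.8 and 58.9 for *H1f0* in place of 35.8. The position of *H2afx* in that comparison is therefore not firm.

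The median footprint density of replication-dependent copies was 9194 RPKM for H2A and 9518 RPKM for H3 with the CDS counted in full. It was 1153 and 4011 RPKM for copies counted in part, an alternative added after the data were seen.

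No paired analysis was possible because only 1 condition and 1 ribosome profiling library were used. The footprints have no replicate here, since further ribosome profiling libraries of these tumour cells listed by the authors were not among the data used, and 2.65 and 21.8 counts limit the RNA-seq value on the *H2afx* CDS.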
